A study of Mus musculus with 8 samples.

Results

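The deposited table of read counts from mouse embryonic stem cells holds 36920 genes. The interferon response and antigen presentation genes described here are 36 of them, chosen by name with earlier results of these data known. They comprise 10 genes of RNA sensing, 4 interferon signalling factors, 13 interferon-stimulated effectors and 9 genes of MHC class I antigen presentation, and all 36 were found by their Ensembl identifiers. The cells were R1, an established mouse embryonic stem cell line, kept in serum with LIF in every group. Some groups received ML-792, an inhibitor of the E1 enzyme that activates SUMO, a small protein attached to other proteins. The 4 groups, each of 2 libraries, were D3 (ML-792 for 48 h from D1), D10 (ML-792 for a further 48 h from D8), D1 and D8 (both labelled control). D8 followed the first exposure and the withdrawal of ML-792, so that the control libraries include cells exposed before. The dose is labelled 2.5 mM.

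Cells that carry no virus usually keep this pathway at a low level. RNA sensors such as RIG-I and MDA5 pass a signal through the adaptor MAVS to the factors IRF3 and IRF7, which switch on type I interferon. Secreted interferon then acts through its receptor on factors that include STAT2 and IRF9, which bind the interferon-stimulated response element in the promoters of effector genes. Embryonic stem cells are known for making little interferon and responding weakly to it, and they display little MHC class I, the surface molecule that shows peptides to T cells.

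Several features of the samples bear on every value below. No library without ML-792 was made at D3 or D10, so the inhibitor and the 2 days in culture cannot be told apart. D1 replicate 2 carries a time tag of D0 beside a title of D1. Nothing in the labels states that replicates were grown separately, and p-values therefore reflect the spread among the libraries at hand, which may be technical. D8 replicate 2 stood apart in its relation between level and GC content (Spearman's rho across 14693 coding genes 0.548). The other libraries had -0.318 and -0.297 at D3, against -0.0755 and 0.115 at D1, and -0.341 and 0.0133 at D10, against 0.104 in D8 replicate 1, so that rho was lower in each ML-792 library than in every control library of its own exposure. Summed levels of 8 embryonic stem cell markers, all with reads in every group, were 4250 to 4280 CPM (read counts scaled to a common library total by TMM) at D3, against 5840 to 6570 CPM at D1, and 3170 to 3730 CPM at D10, against 6060 to 6560 CPM at D8. The 10 blood and immune markers summed to 34.6 to 42.5 CPM at D3, against 45 to 66.6 CPM at D1, and to 35.7 to 42.1 CPM at D10, against 60.8 to 68.1 CPM at D8, mostly from Laptm5 and Cd68. Of these, Tyrobp had 0 reads at D3, Aif1 and Hba-a1 had 0 reads at D1, and Hba-a1 had 0 reads at D8. The 10 fibroblast markers summed to 21.6 to 23.3 CPM at D3, against 13.2 to 15.6 CPM at D1, where 5 of them (Col3a1, Postn, Dcn, Lum and Twist2) had 0 reads, and to 35.1 to 50.6 CPM at D10, against 34.4 to 47.2 CPM at D8, where Postn and Lum had 0 reads. The part of these differences in the results was not tested.

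The promoters of these genes differ in whether they hold the letters of the interferon-stimulated response element. Windows of 250 bases upstream of the annotated start were taken from RefSeq (GRCm38.p6, the assembly of mm10) for the 31 members with an entry. The core of that element, GAAA and GAAA again after any 2 bases, searched on both strands, was present in 978 of 32851 promoter windows of all genes (2.98%) and in those of 9 members, namely B2m, Bst2, Ifit1, Ifit3, Ifitm2, Isg15, Oas1a, Rsad2 and Stat2. The gamma-activated motif TTCNNNGAA was present in 2306 windows (7.02%) and in those of 6 members (Bst2, Eif2ak2, Ifit2, Irf1, Oas1a and Psmb8). All 250 bases of the Eif2ak2 and Psmb8 windows lie within annotated exons. The same is true of the H2-D1, Psmb9, Tap1 and Tapbp windows and of an Irf9 window, none of which has a motif. Several other windows overlap exons in part. The 4 windows shown are examples, of which Isg15 and Oas1a were added after their motifs were seen. Xaf1 fell and has neither motif, whereas Bst2 rose and has both. Oas1a also has both, with the element 2 times, and was lower in every ML-792 library than in every control library. The same held for Ifitm2, which has the element and is not shown. Isg15 has the element 3 times but almost no reads. The 4 windows lie at chr11:72301379-72301628 (plus strand) for Xaf1, chr8:71537473-71537722 (minus strand) for Bst2, chr4:156200819-156201068 (minus strand) for Isg15 and chr5:120907526-120907775 (minus strand) for Oas1a. Capitals mark the motif matches. In Bst2 a gamma-activated match overlaps the first of 2 overlapping element matches, and in Isg15 the 3 matches overlap one another. A match is a description of the letters only.
Xaf1: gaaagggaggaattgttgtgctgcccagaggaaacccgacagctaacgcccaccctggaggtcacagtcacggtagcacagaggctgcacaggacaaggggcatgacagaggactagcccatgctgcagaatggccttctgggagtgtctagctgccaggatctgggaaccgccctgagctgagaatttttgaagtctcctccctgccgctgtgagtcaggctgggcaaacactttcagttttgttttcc
Bst2: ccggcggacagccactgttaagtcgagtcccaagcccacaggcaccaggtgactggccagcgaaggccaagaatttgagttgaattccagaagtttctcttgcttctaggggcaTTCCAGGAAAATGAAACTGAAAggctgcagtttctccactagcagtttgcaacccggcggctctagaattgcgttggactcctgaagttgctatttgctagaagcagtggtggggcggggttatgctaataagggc
Isg15: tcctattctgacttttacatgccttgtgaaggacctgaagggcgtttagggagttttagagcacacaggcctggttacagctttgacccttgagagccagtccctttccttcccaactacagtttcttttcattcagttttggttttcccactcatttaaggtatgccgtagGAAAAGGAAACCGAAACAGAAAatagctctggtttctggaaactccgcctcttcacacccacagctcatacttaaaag
Oas1a: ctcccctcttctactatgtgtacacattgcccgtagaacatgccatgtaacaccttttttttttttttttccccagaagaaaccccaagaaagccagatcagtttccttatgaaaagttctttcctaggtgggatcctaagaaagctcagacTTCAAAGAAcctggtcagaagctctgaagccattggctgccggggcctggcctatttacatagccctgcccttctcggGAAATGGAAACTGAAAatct

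The genes of the pathway differed widely in level in these cells, and several classical effectors had almost no reads. Across the 8 libraries, 20 of the 36 genes had a mean above 1 FPKM (CPM per kilobase of exon), and 11 had a mean below 0.1 FPKM. The highest mean levels per length were those of Ifitm3 (49.2 FPKM), Bst2 (41.3 FPKM), Ifitm2 (40.1 FPKM) and Ifitm1 (38.9 FPKM), membrane proteins that block the entry or release of viruses. Trim25, which ubiquitinates RIG-I, followed at 29.0 FPKM and B2m, the light chain of MHC class I, at 15.1 FPKM. The classical effectors Isg15, Ifit1, Ifit3, Oasl2 and Rsad2, the feedback protease Usp18, the sensor Ifih1 (MDA5) and the factor Irf7 had mean levels of only 0.012 to 0.056 FPKM and no more than 11 reads in any library. Together with Psmb8 they are the 9 members that had too few reads to be tested, and the remaining 27 were tested.

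**Figure D1:**
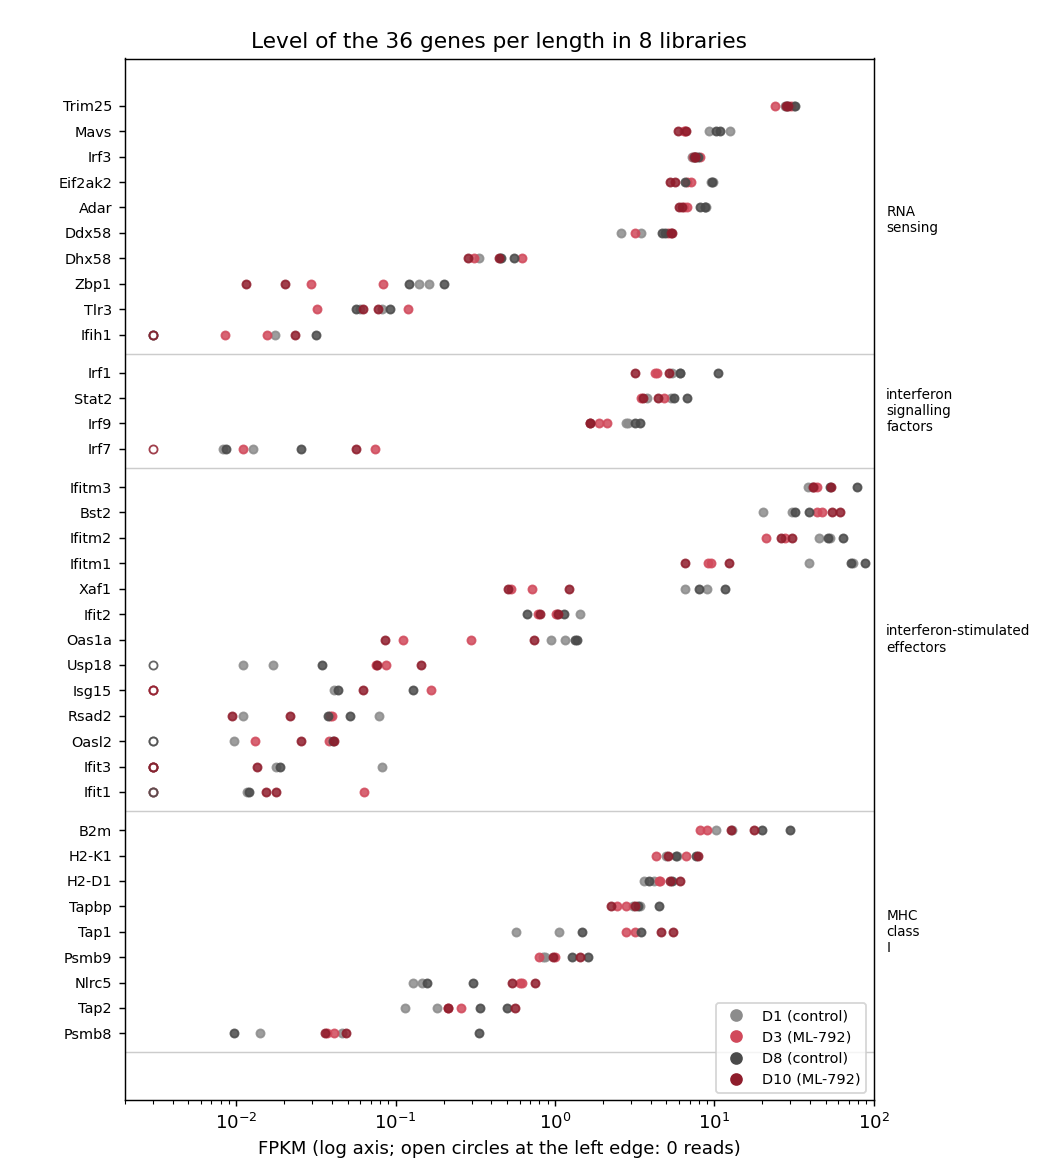
Level per length (FPKM, log axis) of the 36 genes in each of the 8 libraries (points, coloured by group), arranged by role, with open circles at the left edge for libraries with 0 reads. Ifitm3, Bst2, Ifitm2 and Ifitm1 average 38.9 to 49.2 FPKM over the 8 libraries, whereas 8 untested genes average 0.012 to 0.056 FPKM.

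Both exposures to ML-792 were followed by lower levels of the adaptor Mavs and the effectors Xaf1, Ifitm1 and Ifitm2. Levels of Bst2, Nlrc5 and, in the first exposure, Tap1 were higher. With edgeR's quasi-likelihood test and Benjamini-Hochberg adjustment over 19173 genes, 7 of the 27 tested members were called at D3 against D1, 3 higher and 4 lower. Across all genes tested, 13.0% were called in that comparison, 7.92% higher and 5.10% lower. At D10 against D8, 9 of the 27 were called, 2 higher and 7 lower, where 16.9% of all genes were called, 9.27% higher and 7.65% lower. The members' median log2 fold change was -0.13 at D3 and -0.46 at D10, against 0 and 0.03 for all genes. Since the members were chosen with earlier results known, the values of all genes give the setting and test nothing about the group. There were 6 members called in both exposures, Xaf1, Ifitm1, Ifitm2 and Mavs lower and Bst2 and Nlrc5 higher. They make up 85.7% of the members called in the first exposure and 66.7% of those called in the second, where the genes called in both and in the same direction make up 76.6% and 58.9% of all calls. Of the members called in either exposure, 10 of 10 had the same sign in both. The matching share of all genes was not counted, so this is not shown to be particular to the members. Calls in both exposures were made for 6.16% of all genes in the higher and 3.81% in the lower direction.

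With the 4 ML-792 libraries set against the 4 control libraries in a fit with treatment as its term, 12 of the 27 were called, 2 higher and 10 lower, where 28.7% of all genes were called, 15.3% higher and 13.4% lower. In 2 members every ML-792 library was above every control library and in 9 every ML-792 library was below, against 16.1% and 14.9% of all genes. The libraries overlapped in the other 16 members. The fit of 4 libraries a side has no term for exposure and treats D3 and D10, like D1 and D8, as replicates. In RNA from whole cultures, fewer cells of one kind and less RNA per cell cannot be told apart.

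**Figure D2:**
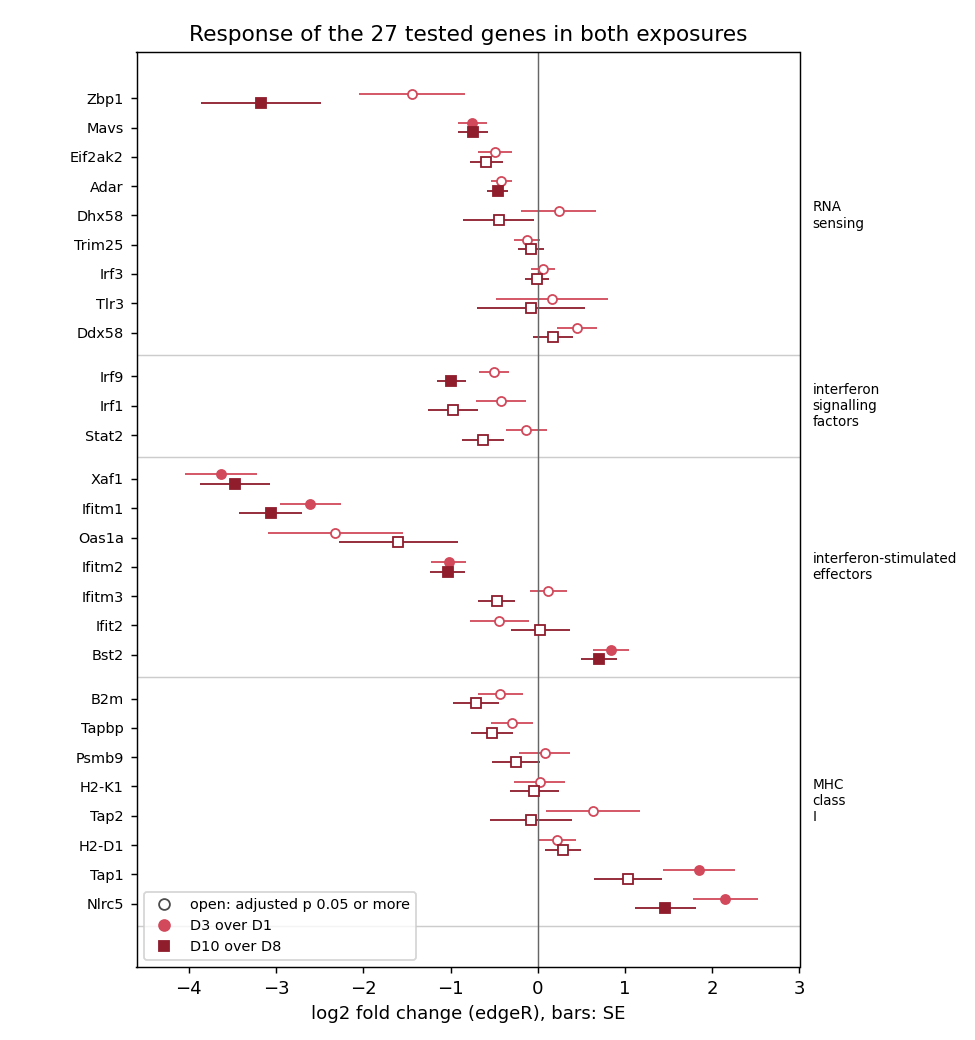
Log2 fold change with its SE for the 27 tested genes, D3 over D1 and D10 over D8, arranged by role, with called genes (adjusted p under 0.05) filled. Xaf1 lies farthest to the lower side in both exposures, followed by Ifitm1 in the first and Zbp1 in the second, and Nlrc5 and Tap1 farthest to the higher side in the first.

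Among the RNA sensing genes, the adaptor Mavs was lower after both exposures. Mavs (ENSMUSG00000037523, chr2:131234063-131248025) joins the RNA sensors to IRF3 on the mitochondrial surface. It had 21.9 and 21.6 CPM at D3, against 31.1 and 42 CPM at D1, and 19.9 and 22.2 CPM at D10, against 34.4 and 36 CPM at D8. All 4 ML-792 libraries lay below all 4 control libraries. The log2 fold change was -0.75 ± 0.17 (SE, adjusted p = 0.025) at D3 and -0.74 ± 0.17 (adjusted p = 0.022) at D10. The first call was lost without D1 replicate 2 (log2 fold change -0.51, adjusted p = 0.18), D3 replicate 1 (adjusted p = 0.14) or D3 replicate 2 (adjusted p = 0.13). The second was lost without D8 replicate 2 (adjusted p = 0.057), D10 replicate 1 (adjusted p = 0.13) or D10 replicate 2 (adjusted p = 0.05), and with a correction for GC content and exon length (log2 fold change -0.44, adjusted p = 0.067). Over all 4 libraries a side, Mavs fell by 0.74 on the log2 scale (SE 0.11, adjusted p = 0.0013), and this call held in all 15 alternatives.

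Zbp1, a sensor of left-handed nucleic acid that triggers cell death, was low throughout. It had 0.0405 and 0.0713 CPM at D10, against 0.425 and 0.708 CPM at D8, and 0.295 and 0.104 CPM at D3, against 0.574 and 0.497 CPM at D1. No ML-792 library reached the lowest control library. These were 1 and 3 reads at D10, against 13 and 22 reads at D8, so that the size of the difference is poorly known: the ratio of the summed reads, scaled by library total, was 0.105 with an exact 95% interval of 0.0272 to 0.295 that covers counting error only. The fitted log2 fold change was -3.17 ± 0.69 (SE, adjusted p = 0.017) at D10 and -1.44 ± 0.61 (adjusted p = 0.16) at D3, where it was not called. Leaving out D8 replicate 2 (adjusted p = 0.071), D10 replicate 1 (adjusted p = 0.082) or D10 replicate 2 (adjusted p = 0.067) ended the D10 call. With all 4 libraries a side it was -2.15 ± 0.5 (SE, adjusted p = 0.0097).

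Adar, which edits adenosine in double-stranded RNA and so hides it from the sensors, showed a small difference in the same direction. It had 49.1 and 50.6 CPM at D10, against 71.5 and 66 CPM at D8, and 52.5 and 54.6 CPM at D3, against 71.4 and 71.7 CPM at D1. The 2 sets of libraries did not overlap. Adar was called at D10 (log2 fold change -0.46 ± 0.12 (SE), adjusted p = 0.032), not at D3 (-0.42 ± 0.12, adjusted p = 0.054), and over all 4 libraries a side (-0.44 ± 0.08, adjusted p = 0.0031). The GC and length correction ended the call at D10 (log2 fold change -0.16, adjusted p = 0.42) and over all libraries (-0.22, adjusted p = 0.17). Leaving out D1 replicate 2, D3 replicate 1, D3 replicate 2, D8 replicate 1, D10 replicate 1 or D10 replicate 2 also ended the D10 call, with adjusted p-values between 0.054 (D8 replicate 1) and 0.16 (D10 replicate 1), as did omitting the low-count filter (adjusted p = 0.083). Adar passed at D3 without D8 replicate 1 (adjusted p = 0.032) or D8 replicate 2 (adjusted p = 0.027). With the replicate number added to the fit as a block, Adar was called at D3 (-0.42, adjusted p = 0.029). Of Adar's exon bases, 16.8% are shared with Chrnb2 on the opposite strand.

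Eif2ak2 (PKR), the kinase that stops translation on double-stranded RNA, was called over all 4 libraries a side but in neither exposure (log2 fold change -0.53 ± 0.15 (SE), adjusted p = 0.026). It had 34.3 and 36.5 CPM at D3, against 48.9 and 50.4 CPM at D1, and 28.8 and 26.8 CPM at D10, against 49.8 and 33.7 CPM at D8. D8 replicate 2, at 33.7 CPM, fell within the range of the ML-792 libraries. With the replicate number as a block, Eif2ak2 was called at D10 (log2 fold change -0.57, adjusted p = 0.028). The call over all libraries was lost without D1 replicate 2 (adjusted p = 0.074), D8 replicate 1 (adjusted p = 0.069), D10 replicate 1 (adjusted p = 0.072) or D10 replicate 2 (adjusted p = 0.059). Eif2ak2 was called at D10 without D8 replicate 2 (log2 fold change -0.87, adjusted p = 0.012) and with the GC and length correction (-0.77, adjusted p = 0.005). Eif2ak2 was also called at D3 with the GC and length correction (adjusted p = 0.013), without D8 replicate 1 (adjusted p = 0.03) and without D8 replicate 2 (adjusted p = 0.025).

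The remaining RNA sensing genes were not called in any comparison. Ddx58 (RIG-I) had 22.6 and 36 CPM at D3, against 18.3 and 24.4 CPM at D1, and 38.1 and 37.9 CPM at D10, against 34.4 and 33.1 CPM at D8. Its log2 fold change was 0.45 ± 0.23 (SE, adjusted p = 0.24) at D3 and 0.17 ± 0.23 (adjusted p = 0.65) at D10. Trim25 ranged from 139 to 183 CPM over the 8 libraries, with -0.12 ± 0.15 and -0.08 ± 0.15 (log2 fold change, SE) in the 2 exposures. Dhx58 (LGP2), a regulator of RIG-I and MDA5, lay between 0.932 and 2.02 CPM, and Tlr3, the endosomal sensor, between 0.168 and 0.627 CPM. Ifih1 had 13 reads in the 4 ML-792 libraries and 11 reads in the 4 control libraries.

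Of the signalling factors, Irf9 (ENSMUSG00000002325, chr14:55603571-55610030), a DNA-binding partner of STAT2, was lower at D10. It had 8.96 and 8.96 CPM at D10, against 18.5 and 17.1 CPM at D8, and 10.1 and 11.5 CPM at D3, against 15.1 and 15.5 CPM at D1. The 4 ML-792 libraries lay below the 4 control libraries. The log2 fold change was -0.99 ± 0.17 (SE, adjusted p = 0.0071) at D10, a call that held in all 15 alternatives, and -0.5 ± 0.17 (adjusted p = 0.09) at D3. The difference between these 2 responses was -0.49 ± 0.24 (log2, SE, unadjusted p = 0.073) and was not called.

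Irf1, an activator of MHC class I genes, and Stat2 had lower means at D10 without passing the test there. Irf1 had 12.7 and 20.7 CPM at D10, against 24.4 and 41.6 CPM at D8, and 16.9 and 17.5 CPM at D3, against 21.7 and 24.3 CPM at D1. Its log2 fold change was -0.97 ± 0.29 (SE, adjusted p = 0.051) at D10 and -0.42 ± 0.29 (adjusted p = 0.39) at D3. With the replicate number as a block, Irf1 was called at D10 (-0.97, adjusted p = 0.0055). At D10 Irf1 was called without D8 replicate 1 (log2 fold change -1.31, adjusted p = 0.014) or D10 replicate 2 (-1.4, adjusted p = 0.034), and with every library by DESeq2 (-0.96, adjusted p = 0.014), with the GC and length correction (-0.7, adjusted p = 0.049) and with no low-count filter (adjusted p = 0.00029). Over all 4 libraries a side Irf1 was called lower (-0.72 ± 0.22, adjusted p = 0.033), and that call was lost without D3 replicate 1 (adjusted p = 0.063), D3 replicate 2 (adjusted p = 0.071) or D10 replicate 1 (adjusted p = 0.088). Stat2 had 21.1 and 26.4 CPM at D10, against 33.2 and 40.2 CPM at D8 (log2 fold change -0.63 ± 0.24 (SE), adjusted p = 0.11, or 0.03 with no low-count filter). With the replicate number as a block Stat2 was called at D10, at an adjusted p that rounds to 0.05. Over all libraries Stat2 was called without D1 replicate 1 (-0.55, adjusted p = 0.023). At D3 it had 28.8 and 20.6 CPM, against 22.4 and 31.7 CPM at D1, and those libraries overlapped. Irf3, the factor activated by MAVS and counted here with the RNA sensing genes, stayed between 24.8 and 28 CPM in all 8 libraries (log2 fold change 0.06 ± 0.14 at D3 and -0.01 ± 0.14 at D10, SE). Irf7 had 18 reads in the 4 ML-792 libraries and 6 reads in the 4 control libraries.

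Among the effectors, Xaf1 and Ifitm1 fell the most of the 7 tested in each exposure. Xaf1 (ENSMUSG00000040483, chr11:72301629-72313733) encodes a partner of the apoptosis inhibitor XIAP that promotes cell death. It had 2.48 and 3.38 CPM at D3, against 30.8 and 42 CPM at D1, and 2.39 and 5.75 CPM at D10, against 54.6 and 37.6 CPM at D8. The highest ML-792 library was thus far below the lowest control library. The ratio of mean CPM was 0.0804 at D3 and 0.0883 at D10. The log2 fold change was -3.63 ± 0.41 (SE, adjusted p = 0.0025) at D3 and -3.47 ± 0.4 (adjusted p = 0.0017) at D10. In both exposures the call held in all 15 alternatives, with log2 fold changes from -3.87 to -3.39 at D3 and from -4.29 to -3 at D10.

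Ifitm1 (ENSMUSG00000025491, chr7:140967221-140969825) belongs to the small membrane proteins that hinder fusion of viral envelopes. It had 10.4 and 9.96 CPM at D3, against 43.2 and 81 CPM at D1, and 7.21 and 13.5 CPM at D10, against 78.9 and 96.4 CPM at D8. No library overlapped between treatments. Ifitm1 fell by 2.61 on the log2 scale at D3 (SE 0.35, adjusted p = 0.0041) and by 3.06 at D10 (SE 0.36, adjusted p = 0.0018), and both calls held in all 15 alternatives. Its neighbours Ifitm2 (chr7:140954837-140955987) and Ifitm3 (chr7:141009586-141010770) lie within the same 55.9 kb. Ifitm2 had 13.8 and 18.3 CPM at D3, against 29.8 and 35.1 CPM at D1, and 17.1 and 20.1 CPM at D10, against 33.7 and 42.3 CPM at D8. The levels of Ifitm2 also did not overlap, and its log2 fold change was -1.02 ± 0.2 (SE, adjusted p = 0.014) at D3 and -1.03 ± 0.2 (adjusted p = 0.011) at D10. The call for Ifitm2 at D3 was lost without D1 replicate 1 (adjusted p = 0.051), D1 replicate 2 (adjusted p = 0.11) or D3 replicate 1 (adjusted p = 0.11), and at D10 without D10 replicate 1 (adjusted p = 0.073). Of its exon bases, 40.9% are shared with Gm45717 on the same strand, so that its level is less certain.

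Ifitm3, the most abundant of the 3 per length, was not called. It had 29.8 and 28.8 CPM at D3, against 27.9 and 26.2 CPM at D1, and 28.1 and 36.4 CPM at D10, against 36 and 53.6 CPM at D8. The D10 and D8 libraries overlapped. Its log2 fold change was 0.12 ± 0.21 (SE, adjusted p = 0.76) at D3 and -0.47 ± 0.21 (adjusted p = 0.16) at D10, where it was called lower without D8 replicate 1 (-0.73, adjusted p = 0.026). Ifitm7, a family member on chromosome 16, was higher at D10 with 2.88 and 1.78 CPM, against 0.654 and 0.515 CPM at D8 (log2 fold change 1.97 ± 0.37 (SE), adjusted p = 0.01). That call for Ifitm7 was lost without D8 replicate 2 (adjusted p = 0.058) or D10 replicate 1 (adjusted p = 0.051). At D3 it had 3.2 and 3.48 CPM, against 2.06 and 1.46 CPM at D1 (0.94 ± 0.34, adjusted p = 0.11). Reads of Ifitm genes may be shared among copies, since the treatment of reads with several matches is not given in the sources used here.

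Bst2 (tetherin, ENSMUSG00000046718, chr8:71534255-71537456), which holds budding virus at the cell surface, was the only effector called higher. It had 40.1 and 42.8 CPM at D3, against 18.3 and 27.9 CPM at D1, and 49.2 and 55.6 CPM at D10, against 29.1 and 35.4 CPM at D8. Every ML-792 library lay above every control library. The log2 fold change was 0.84 ± 0.21 (SE, adjusted p = 0.032) at D3 and 0.7 ± 0.21 (adjusted p = 0.049) at D10. The D3 call was lost without D1 replicate 1 (log2 fold change 0.56, adjusted p = 0.16), D3 replicate 1 (adjusted p = 0.13) or D3 replicate 2 (adjusted p = 0.15). At D10 it was lost without D3 replicate 1 (adjusted p = 0.092), D3 replicate 2 (adjusted p = 0.085), D8 replicate 1 (adjusted p = 0.12), D8 replicate 2 (adjusted p = 0.072), D10 replicate 1 (adjusted p = 0.11) or D10 replicate 2 (adjusted p = 0.17). Over all 4 libraries a side Bst2 rose by 0.76 on the log2 scale (SE 0.19, adjusted p = 0.013), which held in all 15 alternatives.

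**Figure D3:**
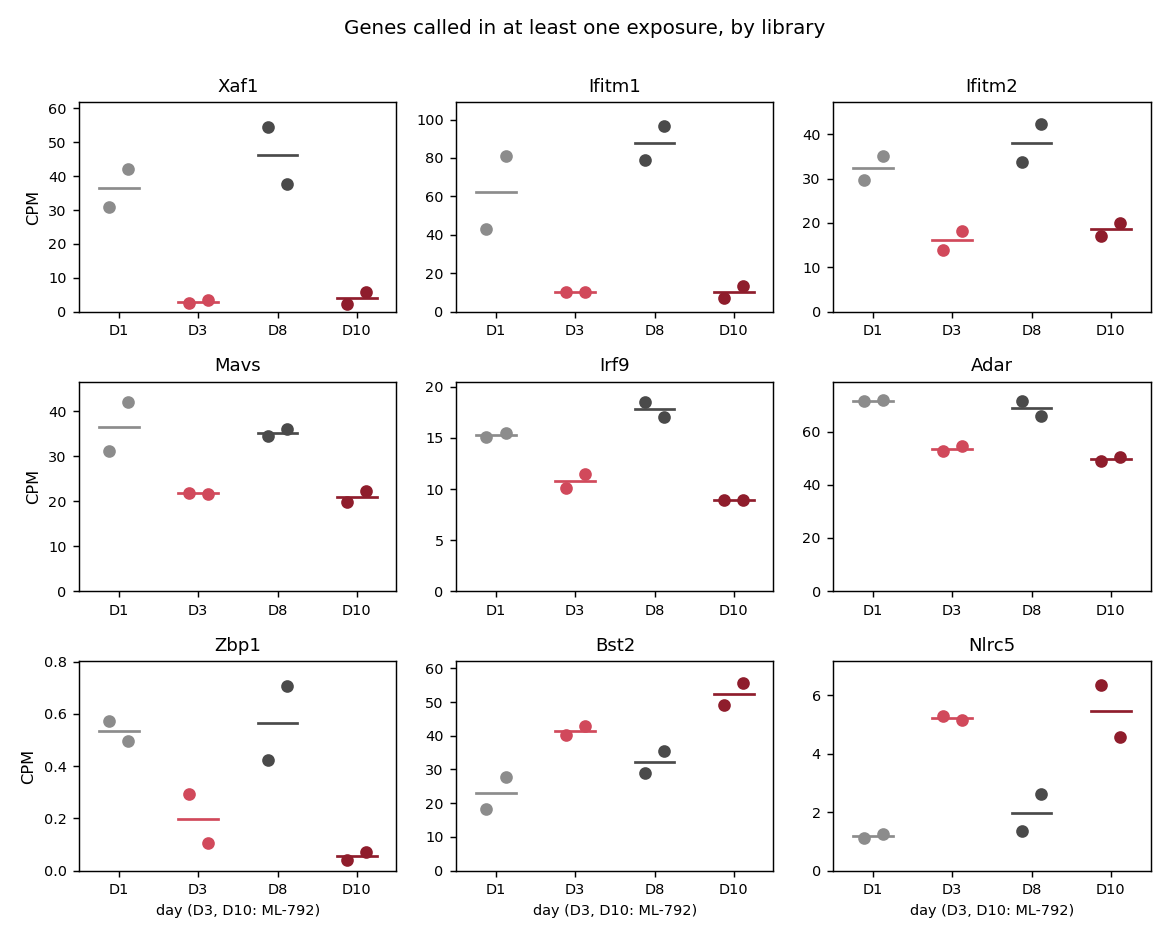
CPM in each library (points) and group mean (lines) of 9 genes called in at least 1 exposure, with D3 and D10 the ML-792 groups and each axis starting at 0. Xaf1 and Ifitm1 fall to 2.39 to 5.75 and 7.21 to 13.5 CPM in ML-792 libraries, and Bst2 and Nlrc5 lie above all control libraries.

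Oas1a, which makes the 2-5A messenger that activates RNase L, was called over all 4 libraries a side (log2 fold change -1.86 ± 0.53 (SE), adjusted p = 0.025). It had 0.21 and 0.557 CPM at D3, against 1.77 and 2.17 CPM at D1, and 0.162 and 1.4 CPM at D10, against 2.52 and 2.57 CPM at D8. All ML-792 libraries were below all control libraries. The separate exposures gave -2.32 ± 0.77 (log2, SE, adjusted p = 0.084) at D3 and -1.6 ± 0.68 (adjusted p = 0.15) at D10, and without D10 replicate 2 the second became -3.96 (adjusted p = 0.014). At D3 Oas1a was called without D10 replicate 1 or D10 replicate 2 (adjusted p = 0.016 each), and with every library by DESeq2 (-2.34, adjusted p = 0.023) and with no low-count filter (adjusted p = 1.6e-05). At D10 it was called with no low-count filter (adjusted p = 0.0014). With the replicate number as a block, Oas1a was called at D3 (-2.39, adjusted p = 0.021) and at D10 (-1.81, adjusted p = 0.031). The call over all libraries was lost without D3 replicate 1 (adjusted p = 0.051), D3 replicate 2 (adjusted p = 0.065) or D8 replicate 1 (adjusted p = 0.056). Ifit2, which binds viral RNA, had 4 and 3.1 CPM at D3, against 5.64 and 4.04 CPM at D1, and 4.09 and 3.18 CPM at D10, against 4.48 and 2.61 CPM at D8, and was not called.

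The remaining effectors had too few reads for a test. Isg15, the ubiquitin-like modifier, had 5 reads in the 4 ML-792 libraries and 5 in the 4 control libraries. Ifit1 had 7 reads against 2 in the control libraries, and Ifit3 had 1 read against 5. Rsad2 (viperin) had 14 reads against 24, and Oasl2 had 24 reads against 10. Usp18, the protease that removes ISG15 and dampens the interferon receptor, had 5 and 7 reads at D3 and 10 and 9 reads at D10, against 1 and 1 read at D1 and 0 and 3 reads at D8. Its 31 reads in ML-792 libraries and 5 in control libraries did not overlap by library, and no test was made at this depth.

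Of 8 MHC class I genes tested, 2 were called higher at D3 (Nlrc5 and Tap1) and 1 at D10 (Nlrc5), and 0 were called lower. Across all genes, 7.92% were called higher and 5.10% lower at D3, and 9.27% and 7.65% at D10. B2m and Tapbp had lower means in both exposures without a call. Nlrc5 (ENSMUSG00000074151, chr8:94434356-94527272), the transactivator of MHC class I genes, had 5.3 and 5.15 CPM at D3, against 1.1 and 1.24 CPM at D1, and 6.36 and 4.56 CPM at D10, against 1.34 and 2.61 CPM at D8. All ML-792 libraries were above all control libraries. Nlrc5 rose by 2.15 on the log2 scale at D3 (SE 0.37, adjusted p = 0.0086) and by 1.46 at D10 (SE 0.35, adjusted p = 0.024). Its first call was lost without D1 replicate 1 (adjusted p = 0.07), D1 replicate 2 (adjusted p = 0.075) or D3 replicate 1 (adjusted p = 0.054), and its second without D8 replicate 1 (adjusted p = 0.06) or D10 replicate 1 (adjusted p = 0.12). Over all 4 libraries a side the change of 1.75 ± 0.29 (log2, SE, adjusted p = 0.0017) held in all 15 alternatives.

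Tap1 (ENSMUSG00000037321, chr17:34187553-34197225), one chain of the transporter that carries peptides into the endoplasmic reticulum, was higher at D3. It had 15.2 and 17.4 CPM at D3, against 3.11 and 5.81 CPM at D1, and 25.2 and 30 CPM at D10, against 8.05 and 19 CPM at D8. The groups of each exposure did not overlap, but D8 replicate 2 was above both D3 libraries. The log2 fold change was 1.85 ± 0.41 (SE, adjusted p = 0.022) at D3 and 1.03 ± 0.39 (adjusted p = 0.11) at D10. With the replicate number as a block, Tap1 was called at D10 (1.12, adjusted p = 0.0083) and over all libraries (1.38, adjusted p = 0.034). The D3 call was lost without D1 replicate 1 (log2 fold change 1.47, adjusted p = 0.14), D1 replicate 2 (adjusted p = 0.067), D3 replicate 1 (adjusted p = 0.087) or D3 replicate 2 (adjusted p = 0.094). Tap1 was called at D10 without D8 replicate 2 (1.75, adjusted p = 0.022), with the GC and length correction (1.47, adjusted p = 0.011) and with DESeq2 (1.05, adjusted p = 0.037). Over all 4 libraries a side it was not called (1.28 ± 0.46, adjusted p = 0.061) with every library, but was without D8 replicate 2 (1.92, adjusted p = 0.0027), with the GC and length correction (1.68, adjusted p = 0.0065) and with DESeq2 (1.3, adjusted p = 0.014).

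The genes beside Tap1 and the chains of MHC class I itself did not pass the test. Psmb9, an immunoproteasome subunit, lies on the opposite strand from Tap1, with its RefSeq start 226 bases from that of Tap1. In GENCODE M21 these genes overlap and share 212 exon bases. Psmb9 had 3.66 and 2.93 CPM at D3, against 3.16 and 3.08 CPM at D1. At D10 it had 3.57 and 5.25 CPM, against 4.68 and 5.89 CPM at D8. Its libraries overlapped in both exposures. H2-K1, a classical heavy chain, had 19.6 and 12.7 CPM at D3, against 17.2 and 14.6 CPM at D1, and 15 and 23.3 CPM at D10, against 16.8 and 22.5 CPM at D8 (log2 fold changes 0.02 ± 0.29 and -0.04 ± 0.28, SE). H2-D1, the other classical heavy chain here, had 11.6 and 11.8 CPM at D3, against 10.9 and 9.32 CPM at D1, and 13.6 and 15.7 CPM at D10, against 10 and 14 CPM at D8. H2-D1 was not called (0.22 ± 0.22 and 0.29 ± 0.21, SE), although with the GC and length correction it was called at D10 (0.65, adjusted p = 0.027) and over all libraries (0.54, adjusted p = 0.0087). Both heavy chains have close copies in the genome, which makes their counts less certain.

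B2m had 6.99 and 7.8 CPM at D3, against 8.75 and 11.1 CPM at D1, and 10.9 and 15.2 CPM at D10, against 17.2 and 25.6 CPM at D8. The ML-792 libraries of each exposure lay below their own controls, with log2 fold changes of -0.43 ± 0.26 (SE, adjusted p = 0.34) and -0.71 ± 0.26 (adjusted p = 0.094), and B2m was called at D10 without D8 replicate 1 (-0.97, adjusted p = 0.034) and with the GC and length correction (-1.25, adjusted p = 0.041). Tapbp (tapasin), which holds the heavy chain at the transporter, had 8.88 and 10.2 CPM at D3, against 11.2 and 12.3 CPM at D1, and 8.19 and 11.6 CPM at D10, against 12.1 and 16.4 CPM at D8. Tap2, the second chain of the transporter, had 0.968 and 0.801 CPM at D3, against 0.43 and 0.683 CPM at D1, and 0.811 and 2.12 CPM at D10, against 1.28 and 1.9 CPM at D8. Neither gene was called in an exposure in the fit of the 4 groups. With the replicate number as a block, Tapbp (-0.53, adjusted p = 0.049) and B2m (-0.71, adjusted p = 0.012) were called at D10. Psmb8 had 3 and 4 reads at D3 and 3 and 7 reads at D10, against 1 and 5 reads at D1 and 1 and 35 reads at D8.

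**Figure D4:**
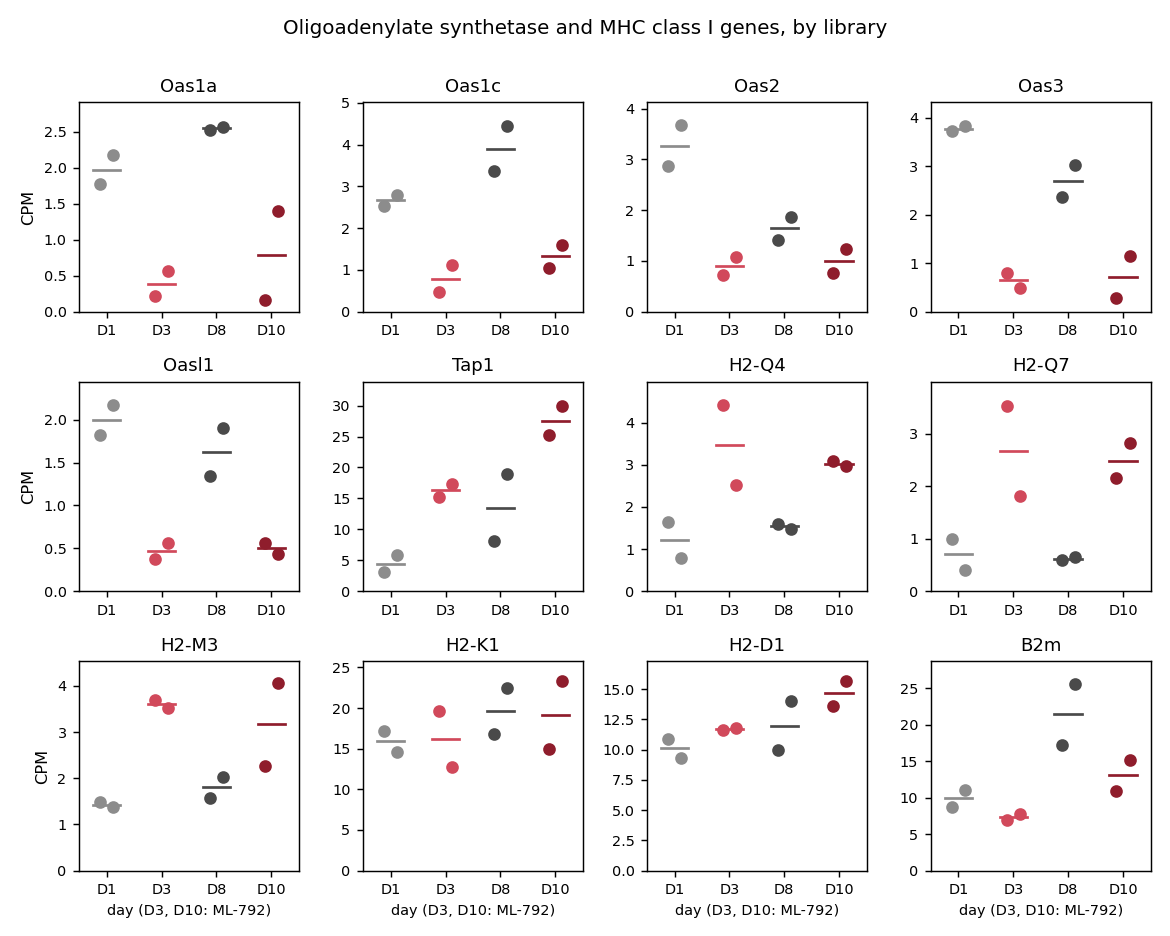
CPM in each library (points) and group mean (lines) of Oas genes and of MHC class I genes, with D3 and D10 the ML-792 groups. The Oas3 points lie at 0.284 to 1.14 CPM in ML-792 libraries, against 2.36 to 3.82 CPM in control libraries, whereas the points of H2-Q7 lie higher in ML-792 libraries.

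Of 32 further interferon-stimulated genes tested, 1 was called higher and 5 lower at D3 (7.92% and 5.10% of all genes). At D10 it was again 1 higher and 5 lower (9.27% and 7.65% of all genes). The median log2 fold changes were -0.22 and -0.47. Over all 4 libraries a side, 4 were called higher and 5 lower, against 15.3% and 13.4% of all genes. The Oas genes, related synthetases and synthetase-like genes on chromosome 5, gave most of the falls: of 7 tested out of 8 listed, Oas1a included, 4 were lower at D3, 3 were lower at D10 and 0 were higher. Oas3 had 0.8 and 0.488 CPM at D3, against 3.73 and 3.82 CPM at D1, and 0.284 and 1.14 CPM at D10, against 2.36 and 3.02 CPM at D8 (log2 fold changes -2.56 ± 0.54 (SE), adjusted p = 0.018, and -1.83 ± 0.52, adjusted p = 0.043). Oasl1 had 0.379 and 0.557 CPM at D3, against 1.82 and 2.17 CPM at D1, and 0.567 and 0.428 CPM at D10, against 1.34 and 1.9 CPM at D8 (-2.07 ± 0.39, adjusted p = 0.012, and -1.72 ± 0.38, adjusted p = 0.018). The ML-792 and control libraries of Oas3 and Oasl1 did not overlap. Oas1c was lower in both exposures (-1.73 ± 0.43 and -1.54 ± 0.4, adjusted p = 0.032 each), and Oas2 at D3 (-1.85 ± 0.38, adjusted p = 0.016) but not at D10 (-0.68 ± 0.37, adjusted p = 0.25). Each of these calls was lost without 1 or more libraries: at D3, without D1 replicate 1 or D1 replicate 2 adjusted p was 0.075 and 0.098 for Oas3, 0.052 and 0.088 for Oasl1, 0.1 and 0.16 for Oas1c, and 0.057 and 0.11 for Oas2, and without D3 replicate 1 it was 0.079, 0.1, 0.17 and 0.12 in the same order. Without D3 replicate 2 adjusted p at D3 was 0.13 for Oas3 and 0.051 for Oas2. At D10, Oas3 was lost with the GC and length correction (0.05) and without D1 replicate 1 (0.068), D1 replicate 2 (0.076), D3 replicate 1 (0.057), D3 replicate 2 (0.062), D8 replicate 2 (0.12) or D10 replicate 1 (0.12). Oasl1 was lost at D10 without D8 replicate 2 (0.077), D10 replicate 1 (0.058) or D10 replicate 2 (0.092), and Oas1c without D1 replicate 1 (0.054), D1 replicate 2 (0.059), D8 replicate 2 (0.11), D10 replicate 1 (0.16) or D10 replicate 2 (0.058). Reads of these related genes may be shared among copies.

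Ube2l6, the E2 enzyme that attaches ISG15, went the other way. It had 2.61 and 6.93 CPM at D3, against 0.478 and 0.373 CPM at D1, and 4.34 and 5.35 CPM at D10, against 0.752 and 1.29 CPM at D8. The treatments did not overlap. Its log2 fold change was 3.5 ± 0.55 (SE, adjusted p = 0.0064) at D3 and 2.25 ± 0.48 (adjusted p = 0.016) at D10. The calls for Ube2l6 were lost without D1 replicate 1 (adjusted p = 0.05) or D1 replicate 2 (adjusted p = 0.074) at D3, and without D8 replicate 1 (adjusted p = 0.051) or D10 replicate 2 (adjusted p = 0.06) at D10.

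Of 23 further MHC class I and peptide loading genes tested, 3 were higher and 1 lower at D3, and 1 was higher and 1 lower at D10, against the shares of all genes of 7.92% and 5.10% at D3 and 9.27% and 7.65% at D10. The nonclassical genes H2-Q4, H2-Q7 and H2-M3 were the higher ones. H2-Q7 had 3.54 and 1.81 CPM at D3, against 1 and 0.404 CPM at D1, and 2.15 and 2.83 CPM at D10, against 0.589 and 0.644 CPM at D8. Its ML-792 libraries lay above its control libraries (log2 fold change 1.97 ± 0.5 (SE), adjusted p = 0.035 at D3, and 2.01 ± 0.49, adjusted p = 0.026 at D10). H2-Q4 (1.55 ± 0.42, adjusted p = 0.043) and H2-M3 (1.34 ± 0.35, adjusted p = 0.038) were called at D3 but not at D10 (adjusted p = 0.14 and 0.13). Each D3 call was lost without D1 replicate 1 (adjusted p 0.056 for H2-Q7, 0.06 for H2-Q4 and 0.15 for H2-M3), D1 replicate 2 (0.21, 0.25 and 0.2) or D3 replicate 1 (0.23, 0.28 and 0.16), and without D3 replicate 2 for H2-Q4 (0.052) and H2-M3 (0.13). At D3, H2-Q4 was also lost without D10 replicate 1 (adjusted p = 0.056) or D10 replicate 2 (adjusted p = 0.058). At D10, H2-Q7 was lost without D8 replicate 1 (adjusted p = 0.062), D8 replicate 2 (adjusted p = 0.089), D10 replicate 1 (adjusted p = 0.056) or D10 replicate 2 (adjusted p = 0.097). Psmb10, an immunoproteasome subunit, was lower, with 23.5 and 19.1 CPM at D3, against 41.5 and 34.4 CPM at D1, and 25.4 and 20.7 CPM at D10, against 35.3 and 40.5 CPM at D8 (-0.83 ± 0.18, adjusted p = 0.022, and -0.72 ± 0.18, adjusted p = 0.03). Psmb10 lost its D3 call without D1 replicate 1 (adjusted p = 0.13), D1 replicate 2 (0.073), D3 replicate 1 (0.071) or D3 replicate 2 (0.15), and its D10 call without D8 replicate 2 (0.096), D10 replicate 1 (0.06) or D10 replicate 2 (0.13) and with the GC and length correction (log2 fold change -0.43, adjusted p = 0.13). H2-T23, another nonclassical gene, had 19 reads in all and was not tested, and Rfx5, a factor that acts with NLRC5, was not called.

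Among 18 further genes of nucleic acid sensing tested, 2 were higher and 1 lower at D3, and 2 were higher and 2 lower at D10, counts near the shares of all genes (7.92% and 5.10% at D3, 9.27% and 7.65% at D10). The sensors of bacterial products Tlr2 and Nod1 were the higher ones. Tlr2 had 28.2 and 43.1 CPM at D3, against 6.89 and 10.1 CPM at D1, and 22.9 and 27.3 CPM at D10, against 6.25 and 8.43 CPM at D8 (log2 fold change 2.07 ± 0.28 (SE), adjusted p = 0.0041, and 1.77 ± 0.28, adjusted p = 0.0051). Nod1 had 3.87 and 6.58 CPM at D3, against 1.2 and 0.839 CPM at D1, and 5.75 and 3.95 CPM at D10, against 0.883 and 0.965 CPM at D8 (2.38 ± 0.38 in both, adjusted p = 0.0068 and 0.0053), and its D3 call was lost without D1 replicate 2 (adjusted p = 0.076). In neither gene did the treatments overlap. Rnaseh2b, a subunit of the enzyme that removes RNA from DNA, was lower in both exposures (-0.53 ± 0.13, adjusted p = 0.03, and -0.5 ± 0.13, adjusted p = 0.031), and its partner Rnaseh2a at D10 (-0.63 ± 0.13, adjusted p = 0.016). At D3 the call for Rnaseh2b was lost without D1 replicate 1 (adjusted p = 0.1), D1 replicate 2 (0.16), D3 replicate 1 (0.21) or D3 replicate 2 (0.11), and at D10 without D10 replicate 1 (0.11), D10 replicate 2 (0.12), D1 replicate 2 (0.056), D3 replicate 1 (0.052), D3 replicate 2 (0.062) or D8 replicate 1 (0.056). Without D10 replicate 1 that for Rnaseh2a was lost as well (adjusted p = 0.099), as it was with the GC and length correction (adjusted p = 0.055).

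Of 24 interferons, receptors and JAK-STAT genes listed, 16 were tested. By edgeR 0 were called higher in either exposure, 1 was lower at D3 and 2 were lower at D10. Across all genes tested, 7.92% were called higher and 5.10% lower at D3, and 9.27% and 7.65% at D10. Ifng and Ifnk each had 3 reads in the 8 libraries together, and Ifnb1 was not analysed here. The receptor chains did not pass the test: Ifnar1 had log2 fold changes of 0.04 ± 0.14 at D3 and 0.06 ± 0.14 at D10 (SE), and Ifnar2 -0.29 ± 0.26 and -0.45 ± 0.26. Socs3, the feedback inhibitor of JAK-STAT signalling that LIF also induces, had 133 and 103 CPM at D3, against 189 and 188 CPM at D1, and 135 and 150 CPM at D10, against 234 and 246 CPM at D8. Those libraries did not overlap, and Socs3 was called lower in both exposures (-0.68 ± 0.15, adjusted p = 0.021, and -0.75 ± 0.15, adjusted p = 0.012). The GC and length correction ended both calls for Socs3 (adjusted p = 0.068 and 0.15), as did leaving out D1 replicate 1 (0.093), D1 replicate 2 (0.12) or D3 replicate 2 (0.15) at D3 and D10 replicate 1 (0.082) at D10. Irf8, a factor best known in myeloid cells, was lower at D10 (-1.42 ± 0.38, adjusted p = 0.035), a call lost without D1 replicate 1 (0.057), D1 replicate 2 (0.063), D3 replicate 2 (0.052), D8 replicate 2 (log2 fold change -0.9, adjusted p = 0.18), D10 replicate 1 (0.15) or D10 replicate 2 (0.099).

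Between the exposures, at D8 against D1, no member was called by edgeR's quasi-likelihood test, where 0.177% of all genes were called. At an unadjusted p under 0.05 there were 7 members, Ddx58, Bst2, Ifitm3, B2m, Tap1, Tap2 and Psmb9, where 12.1% of all genes passed that level. DESeq2 called 2 members and 2.24% of all genes. With the replicate number as a block, edgeR called 2 members, B2m and Tap1, and 535 of all 19173 genes. The members' median log2 fold change was 0.34, against 0 for all genes. B2m had 17.2 and 25.6 CPM at D8, against 8.75 and 11.1 CPM at D1 (1.11 ± 0.26 (SE), adjusted p = 0.18), and Tap1 had 8.05 and 19 CPM at D8, against 3.11 and 5.81 CPM at D1 (1.58 ± 0.41, adjusted p = 0.22). D8 and D1 did not overlap in these 2 genes, which across all genes was seen in 21.6% with D8 higher and in 20.3% with D8 lower, and DESeq2 called B2m (adjusted p = 0.0091) and Tap1 (adjusted p = 0.0044). Without D8 replicate 1, edgeR called 3 members, B2m (1.37, adjusted p = 0.048), Ifitm3 (0.99, adjusted p = 0.044) and Tap1 (2.07, adjusted p = 0.033). The response to the second exposure was not shown to differ from that to the first for any member: 0 were called by edgeR, 0 by DESeq2 and 0 had an unadjusted p under 0.05, where 0%, 0.0156% and 575 of all 19173 genes did. For Tap1, called at D3 only, the difference of responses was -0.82 ± 0.56 (log2, SE, unadjusted p = 0.18), and for Zbp1, called at D10 only, it was -1.73 ± 0.96 (unadjusted p = 0.1).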

How the data were processed

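RNA was sequenced from 8 libraries of R1 cells, 2 in each of the groups D1, D3, D8 and D10. The authors deposited raw, unnormalized counts of reads for each Ensembl gene. Per the submitters' processing notes, the tools were bcl2fastq 2.17.1.14, STAR 2.5.0a and featureCounts, with the build mm10. Not given in the sources used here are the version of featureCounts, the release of its annotation, its strand setting and how reads with several matches were treated. PolyA RNA is the labelled molecule, although the kit in the extraction protocol was for stranded total RNA depleted of ribosomal RNA.

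Libraries held 21040992 to 40835518 reads in genes. Symbols and coordinates came from GENCODE M21 on mm10 by Ensembl identifier, with a symbol for 36901 of 36920 genes and none for 19. edgeR's filterByExpr kept 19173 genes. Counts were scaled by TMM and fitted in 1 quasi-likelihood model of 4 groups (edgeR 4.0.16, R 4.3.3; 4 residual degrees of freedom, biological coefficient of variation 19.6%). Contrasts were D3 minus D1, D10 minus D8, D8 minus D1 and the difference of both responses. A second fit compared all ML-792 with all control libraries. All tests were 2-sided with Benjamini-Hochberg adjustment over every gene tested, and calls were made at an adjusted p under 0.05. The SE is the log2 fold change divided by the square root of F. Scripts were tested on simulated data.

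All 36 members are reported. From each further list, genes with the largest called changes and a mean of at least 1 CPM are named, besides Ifnar1, Ifnar2, Rfx5 and H2-T23. A further result is not reported here. Members and lists were chosen with earlier results of these data known. Isg15 and Oas1a were added to the promoters shown after their motifs were seen. Alternatives were RLE scaling, no and a stricter filter (1 CPM in 2 libraries), DESeq2 1.42.0, a replicate block, a correction for GC content and length by gene, both together, and each library left out in turn, which leaves an arm with 1 library that is assumed to vary like the rest.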

Additional observations from a re-analysis of the deposited data

Results flagged for a closer look

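In 8 of 72 sets of 4 libraries (each member, ML-792 or control), 1 library stood far from the other 3 by Dixon's criterion, which chance gives in about 5% of sets. In 5 of these it was D8 replicate 2 among the control libraries, which had 33.7 CPM of Eif2ak2 (others 48.9 to 50.4), 41.6 CPM of Irf1 (others 21.7 to 24.4), 2.61 CPM of Nlrc5 (others 1.1 to 1.34), 1.13 CPM of Psmb8 (others 0.0327 to 0.155) and 66 CPM of Adar (others 71.4 to 71.7). Among the ML-792 libraries, D10 replicate 2 had 2.12 CPM of Tap2 (others 0.801 to 0.968) and 0.0238 CPM of Ifit3, which is 1 read where the others had 0. D3 replicate 1 had 22.6 CPM of Ddx58 (others 36 to 38.1).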

How the results depend on the processing

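The count of members called over all libraries, 12, stayed between 10 and 14 under every alternative. At D3 it was 7 and ranged from 2 to 9 when 1 library was left out. At D10 it was 9, ranged from 3 to 9 when 1 library was left out, and was 15 with no low-count filter. At D8 against D1 it was 0, with 0 to 3 when 1 library was left out, 4 with no filter and 2 with DESeq2. Of all genes, 2496 were called at D3 (363 to 3209 with 1 library left out, 3847 with no filter, 3754 with the GC and length correction), 3244 at D10 (1407 to 4326), and 34 at D8 against D1 (0 to 339, 973 with no filter, 84 with the GC and length correction, 429 with DESeq2). For the difference of responses, 0 were called, 66 with no filter and 3 with DESeq2 (575 at an unadjusted p under 0.05). Without D10 replicate 1, 71.4% of the genes called at D10 were higher, against 54.8% with it. With no filter, 36 members and 35482 genes were tested, against 27 and 19173 with it, and 4576 genes were called at D10. The causes of these changes were not tested.

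The labels number the replicates but do not say whether same-numbered libraries share a culture or batch. Deviations of same-numbered libraries from their group means had correlations of 0.101 to 0.498. With the replicate number as a block, 9 members and 4187 genes were called at D3, where Adar and Oas1a were added. At D10 it was 16 members and 5298 genes (Eif2ak2, Stat2, Irf1, Oas1a, B2m, Tapbp and Tap1 were called besides the 9). At D8 against D1 it was 2 members (B2m and Tap1) and 535 genes. The block together with the GC and length correction gave 10 and 5544, 16 and 5835, and 3 and 626. Under that setting Irf3 changed sign at D10, to 0.39 on the log2 scale (adjusted p = 0.031). With no filter the median of all genes moved to 0.12 over all libraries. Depth limits the 9 untested members, for which 3 reads correspond to 0.0713 to 0.143 CPM.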
